A study of Medicago truncatula with 14 samples.

Results

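The data were the 3 peak lists of NIN chromatin immunoprecipitation in Medicago truncatula roots, each made from 1 NIN immunoprecipitation library and the NIN control library with the same replicate number. They were chosen by their labels, and the 6 NIN libraries behind them are 6 of the 14 libraries of the series. The roots were hairy roots of ecotype jemalong, cultivar Jester, transiently transformed with a GFP fusion of NIN under the Lotus japonicus ubiquitin promoter LjUBI, so NIN was expressed from a promoter other than its own. All 6 libraries share this genotype in the labels, which describe the 3 immunoprecipitations and the 3 controls as NIN overexpression. The protocol also names roots with a nuclear GFP as a control, and which material gave the control libraries cannot be told apart from the labels. Roots grew for 3 weeks without a symbiont on medium with 0.5 mM ammonium nitrate, and the stated purpose was a search for binding sites. The labels do not say whether replicates came from separate plants or transformations, so the spread between lists may be technical. With 3 lists of 1 group there is nothing to permute, and all comparisons here are descriptions without a test.

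NIN (NODULE INCEPTION) is a plant transcription factor of the RWP-RK family, and legumes that lack it form neither infection threads nor nodules. Rhizobial signalling through the common symbiosis pathway switches NIN on, and NIN then acts on genes of infection, of nodule organ formation and of autoregulation, the systemic brake on nodule number. RWP-RK proteins of the related NLP group bind the nitrate responsive element, a palindrome-like motif in promoters of nitrate-induced genes.

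The 3 NIN lists differed widely in length and in peak width. Replicate 1 held 14021 peaks that covered 0.947% of the 8 chromosomes, replicate 2 held 28825 peaks over 2.14%, and replicate 3 held 84178 peaks over 12.3%. The median peak was 251 bp wide in replicate 1, 272 bp in replicate 2 and 455 bp in replicate 3, a mean of 326 ± 112 bp (SD, n = 3 lists). Each list began at its own floor, with a narrowest peak of 175, 180 and 195 bp in replicates 1, 2 and 3, and the closest neighbours in 1 list were 151 to 154 bp apart. The lists therefore overlapped at narrow widths and separated at large ones. Peaks over 1000 bp numbered 11 in replicate 1, 124 in replicate 2 and 12666 in replicate 3. Such peaks held 0.314% of the covered bases of replicate 1, 1.60% of those of replicate 2 and 38.6% of those of replicate 3. The widest NIN peak, 13878 bp, belonged to replicate 3, while the widest of replicate 1 was 1419 bp. The lists give each peak a running number that does not follow the genome, read here as a rank by a measure that is not named. In replicate 3 the median width was 835 bp in the first 20% of the list and 309 bp in the last 20%. In replicates 1 and 2 it hardly moved along the list, with 259 and 253 bp in the first and last 20% of replicate 1 and 287 and 266 bp in those of replicate 2. No read numbers were used, so sequencing depth is unknown, and its part in list length and peak width was not tested.

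**Figure D1:**
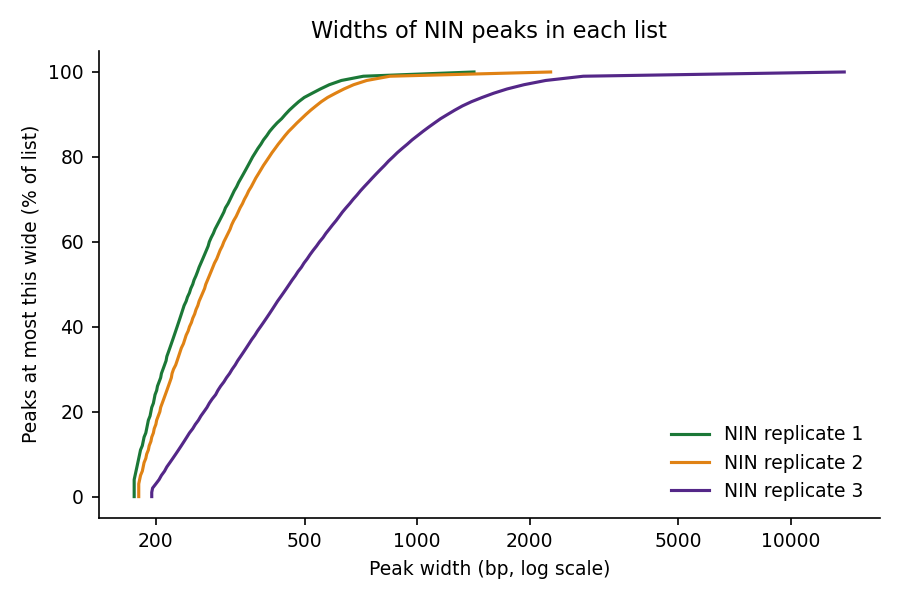
Cumulative widths of the NIN peaks: the x axis is peak width in bp on a log scale, the y axis the percentage of the list's peaks that are at most this wide, with 1 line per replicate list. The lines of replicates 1 and 2 lie close together, with medians of 251 and 272 bp, and that of replicate 3 lies to the right of both, with a median of 455 bp.

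Every pair of NIN lists overlapped beyond what the covered length alone would give. Of the peaks of replicate 1, 20.4% touched a peak of replicate 2 by at least 1 bp. The share of positions at which a peak of the same width would touch that list was 4.09%, so the overlap was 4.98 times this share. Of the same peaks 39.2% touched replicate 3, against 17.8% of positions, a ratio of 2.21. Peaks of replicate 2 touched replicate 3 in 48.5% of cases, against 18.4% of positions, a ratio of 2.64. Seen from the longer list, 9.95% of replicate 2 touched replicate 1, 6.40% of replicate 3 touched replicate 1 and 15.4% of replicate 3 touched replicate 2. Counted in shared bases over all bases covered by either list, the agreement was 4.75% for replicates 1 and 2, 2.51% for replicates 1 and 3 and 6.93% for replicates 2 and 3. A high share of peaks in contact with replicate 3 thus went with a lower ratio to the share of positions.

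The excess was local. Midpoints of replicate 1 peaks lay inside replicate 2 peaks in 14.8% of cases, which is 6.85 times the 2.17% of bases that replicate 2 covers, averaged over the chromosomes of replicate 1 peaks. After replicate 1 was moved by 0.2 kb the ratio was 4.10, after 1 kb 2.03 and after 100 kb 1.06. For replicate 1 in replicate 3 the ratio was 2.77 at no offset, 1.36 at 1 kb and 1.00 at 100 kb. For replicate 2 in replicate 3 it was 3.42, 1.73 and 1.10 at the same offsets. Coincidence at the same base positions was thus several times coverage, and a lesser enrichment reached over some kilobases around it. Where exactly 1 peak of each list met, the midpoints were a median of 99 bp apart in replicates 1 and 2, 158 bp in replicates 1 and 3 and 152 bp in replicates 2 and 3. The paired peak of replicate 3 was wider, by a median factor of 2.50 over its replicate 1 partner and 2.30 over its replicate 2 partner, against 1.10 for replicate 2 over replicate 1.

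**Figure D2:**
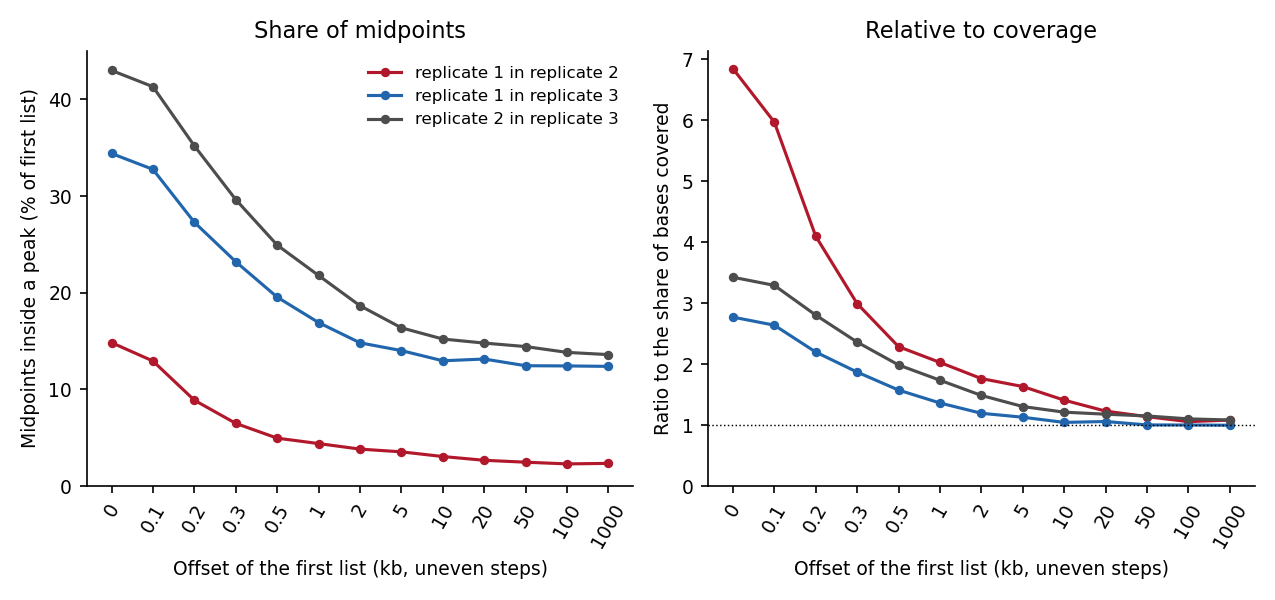
Left, the percentage of midpoints of the first-named NIN list that lie inside a peak of the second; right, the same divided by the share of bases the second list covers; x axis, offset of the first list in kb with uneven steps, and the dotted line marks a ratio of 1. All 3 pairs are highest at no offset, with ratios of 6.85, 2.77 and 3.42, and lie between 1.00 and 1.10 at 100 kb.

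Peaks that met a peak of another list were wider and stood slightly earlier. In replicate 1 the median width was 283 bp for peaks that touched replicate 2 and 243 bp for those that did not. In replicate 3 it was 754 bp for peaks that touched replicate 2 and 422 bp for those that did not. A wider peak has more room to touch another. By midpoints, 50.7% of the widest 20% of replicate 2 lay in replicate 3 peaks and 38.6% of the narrowest 20%, while for replicate 3 in replicate 1 the shares were 2.98% of the widest and 2.03% of the narrowest 20%, with no steady order between them. By list order, 26.8% of the first 20% of replicate 1 touched replicate 2, and 17.7% of the last 20%. The first and last 20% of replicate 2 touched replicate 3 in 57.1% and 43.8% of cases. Among peaks that met 1 to 1, the places in the lists were nearly unrelated, with a Spearman rho of 0.114 over 2800 pairs in replicates 1 and 2, 0.0589 over 5148 pairs in replicates 1 and 3 and 0.107 over 11527 pairs in replicates 2 and 3. These are correlations over peaks of the same libraries and carry no p.

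The very head of the lists was the exception, and most of it lay in a stretch with ribosomal RNA genes. All of the first 10 peaks of replicate 1 had a partner among the first 10 of replicate 2 and of replicate 3, and the same held for replicate 2 in replicate 3. Most of them fell in 1 stretch of chromosome 5, chr5:23802279-23927255, which spans 125 kb and holds 6 annotated rRNA genes. This stretch gave 9 of the first 10 peaks of replicate 1, 9 of replicate 2 and 8 of replicate 3, and 9 regions in all 3 lists, 204 to 830 bp wide. Of these regions 1 overlapped an rRNA gene, and the others lay 504 to 4977 bp from one, some of them at or beside coding genes such as LOC120580582 and LOC25480017. The first place of replicate 1, chr5:23802318-23802639, was the second of replicate 2 and the third of replicate 3. The peak at chr5:23810265-23810650, the second of replicate 1, was the first of both other lists. The remaining place among the first 3 was on an unplaced sequence in every list. Beyond this head the agreement dropped steeply. Among the first 100 peaks of each list, 26% of replicate 1 touched replicate 2, 22% of replicate 1 touched replicate 3 and 36% of replicate 2 touched replicate 3. Among the first 2000 these shares were 6.1%, 7.8% and 13.0%, their lowest over the list lengths tried, against 0.318%, 0.794% and 0.837% of positions. Among the first 14021 they were 11.8%, 13.1% and 21.0%, against 2.05%, 4.59% and 4.81% of positions. For the first 100 the shares of positions were 0.0195%, 0.0403% and 0.0443%. Relative to positions, agreement thus kept falling from the first 100 through the first 2000 to the first 14021. The order of the 3 plain shares at the equal length of 14021 was that of the whole lists. In repeated genes such as those for rRNA, reads from many copies can pile up on the few copies in an assembly, and the part of this in the head of the lists was not tested. Of the 2090 regions in all 3 lists on chromosomes, 12 lay within 5000 bp of an rRNA gene.

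Merging all peaks that shared at least 1 bp gave 106019 regions, of which few recurred. A single list supported 88791 regions (83.8%), 2 lists supported 15136 (14.3%) and all 3 lists supported 2092 (1.97%). Replicate 3 alone accounted for 67893 regions, replicate 2 alone for 13613 and replicate 1 alone for 7285. Regions of 2 lists were mostly those of replicates 2 and 3, with 10668, against 3287 of replicates 1 and 3 and 1181 of replicates 1 and 2. Replicate 3 therefore had a peak in all but 1181 of the 17228 regions found in at least 2 lists. Without replicate 3, the other lists merged into 39963 regions, of which 2840 were in both. Leaving out replicate 2 instead left 5341 regions in both, and leaving out replicate 1 left 12734. Of its own peaks, replicate 1 had 52.0% in regions of 1 list, replicate 2 47.2% and replicate 3 80.7%. Peaks in regions of all 3 lists had a median place at 43.1% of list length in replicate 1, 40.7% in replicate 2 and 21.8% in replicate 3.

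**Figure D3:**
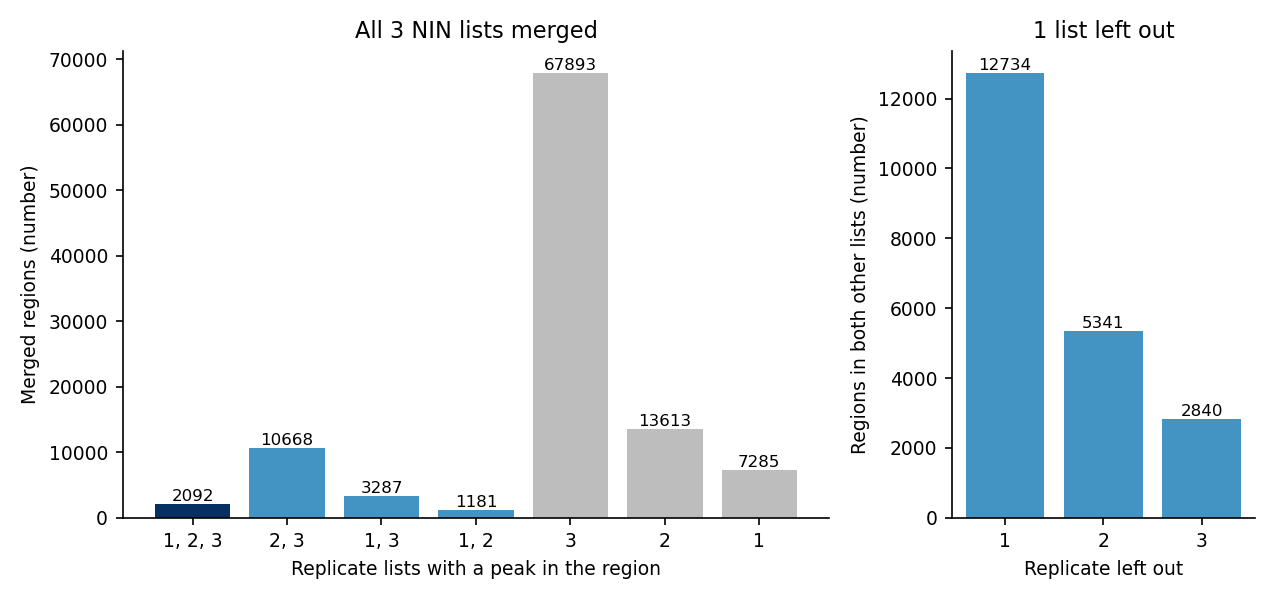
Left, number of merged NIN regions by the replicate lists that have a peak in them; right, number of regions in both remaining lists when 1 list is left out. Regions of replicate 3 alone (67893) outnumber all others, and regions in both remaining lists number 2840 without replicate 3, against 5341 and 12734 without replicates 2 and 1.

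Regions of more lists were wider, in part through merging. Regions of 1, 2 and 3 lists had median widths of 357, 719 and 1058 bp. Without the wide peaks of replicate 3 the same step was smaller, with 455.5 bp for the 2840 regions in both replicates 1 and 2 and 261 bp for the regions in 1 of them. Bases where all 3 lists had a peak at once summed to 0.318 Mb, 0.529% of all bases covered, and those of exactly 2 lists to 5.04 Mb or 8.37%. The 2092 regions in all 3 lists together span 2.97 Mb, so most of their width was not shared base by base. In 1363 regions of at least 2 lists (7.91%), 1 list had placed several peaks, and the fullest region held 14 peaks.

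Replicates 2 and 3 put their peaks outside coding genes more often than chromosome bases as a whole, and replicate 1 did not. Midpoints lay inside coding genes for 30.7% of replicate 1 peaks, 24.5% of replicate 2 peaks and 23.3% of replicate 3 peaks, where coding genes hold 30.5% of the chromosome bases. The regions that recurred were the most intergenic: 16.0% of regions in all 3 lists had their midpoint in a coding gene, 18.6% of regions in 2 lists and 27.2% of regions in 1 list. Over 2000 bp from any coding gene lay 69.0%, 64.5% and 53.7% of them. The shares also differed by which lists took part. Regions of replicate 3 alone lay inside coding genes in 24.8% of cases. Regions of replicates 1 and 2 without replicate 3 lay inside coding genes in 33.1% of cases, while those of replicates 1 and 3 did so in 21.5% and those of replicates 2 and 3 in 16.1%. With the genes moved by 5000 bp to either side, the share for regions in all 3 lists was 21.7 and 22.2%, higher than at the true positions. Whole lists changed less, to 28.8 and 29.6% in replicate 1, 25.0 and 25.2% in replicate 2 and 26.4 and 26.8% in replicate 3. That genes and peaks share coordinates remains an assumption. For regions of replicate 1 alone the share was 39.2% at the true positions, against 32.1 and 32.2% with the genes moved.

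Within replicate 1, peaks that touched a peak of replicate 3 lay in coding genes in 19.1% of cases (5498 peaks), and those that did not touch in 38.2% (8514 peaks). Within replicate 2 the shares were 15.8% for touching peaks (13959) and 32.7% for the others (14819). In both lists the touching peaks had the lower share on 8 of 8 chromosomes. For replicate 1 the touching shares ranged from 16.4 to 20.7% over chromosomes and the others from 33.0 to 42.4%, and for replicate 2 from 12.4 to 20.7% and from 28.7 to 38.5%, so they did not overlap in either list. Contact between replicates 1 and 2 went with less of a difference: 23.1% of touching and 32.6% of other replicate 1 peaks lay in genes, and 23.2% of touching and 24.6% of other replicate 2 peaks. Among replicate 1 peaks this share was lower for those touching replicate 2 on 8 of 8 chromosomes. It ranged over chromosomes from 20.76 to 26.56% for touching peaks and from 26.64 to 37.34% for the others. Among replicate 2 peaks the share was lower for those touching replicate 1 on 5 of 8 chromosomes. The bases covered by replicate 3 were themselves poor in genes: 20.6% of them lay in coding genes, against 31.9% of the bases it did not cover. Put the other way round, replicate 3 covered 8.29% of coding-gene bases and 14.0% of other bases. Set against this coverage, midpoints of replicate 1 fell in replicate 3 peaks at 2.48 times coverage inside genes and 2.89 times outside, and midpoints of replicate 2 at 3.22 times inside and 3.44 times outside. Relative to coverage, agreement with replicate 3 was therefore of similar size inside and outside genes. Between replicates 1 and 2, midpoints of replicate 1 fell in replicate 2 peaks at 6.48 times coverage inside genes and 7.08 times outside.

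**Figure D4:**
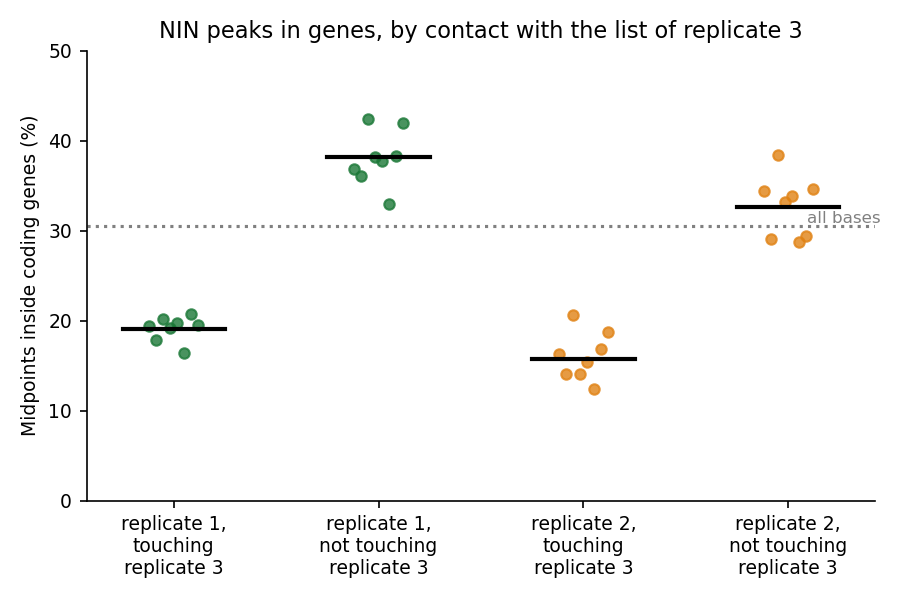
Percentage of NIN peak midpoints inside coding genes, for peaks of replicates 1 and 2 that touch or do not touch a peak of replicate 3. Points are the 8 chromosomes, black bars all chromosomes together, and the dotted line the 30.5% of chromosome bases in coding genes; touching peaks are at 19.1 and 15.8%, the others at 38.2 and 32.7%.

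NIN peaks came in groups. Median gaps between neighbouring peaks were 16538 bp in replicate 1, 5987 bp in replicate 2 and 1690 bp in replicate 3, against mean gaps of 30153, 14519 and 4466 bp. The ratio of median to mean was 0.548, 0.412 and 0.378, below the 0.693 of evenly mixed, exponential gaps in every list and lowest in the longest list. Gaps under 1000 bp made up 5.51%, 13.9% and 39.7% of gaps in replicates 1, 2 and 3. Such shares also rise with the number of peaks alone and were not scaled to it. Regions in at least 2 lists had a median gap of 10416 bp, and 12.4% of their gaps were under 1000 bp. Joined where they lay within 1 kb, they made 15071 runs, of which 1778 held more than 1 region and together 3901 regions (22.7%). The longest runs held 6 regions, and both lay on chromosome 6, at chr6:26452496-26467941 and chr6:23304058-23318442. Regions in all 3 lists were far sparser, with a median gap of 97.9 kb.

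Of 4264 bins of 100 kb, 426 (9.99%) held no region in at least 2 lists, while 321 bins with 10 or more held 22.2% of these regions. Chromosome 6 had 63 of the 321, more than any other chromosome, and chromosome 3 had 17, the fewest. The 5 densest bins held 19 to 21 such regions each. At chr6:30000001-30100000 there were 21, with 6 in all 3 lists, from 15, 28 and 26 peaks of replicates 1, 2 and 3, around 1 coding gene. Another 21 lay at chr3:13100001-13200000 around 3 coding genes, and 20 each at chr4:24000001-24100000 around 1 coding gene and at chr7:28200001-28300000 around 9. At chr5:38800001-38900000 there were 19, of which 8 were in all 3 lists, the most among these bins, around 7 coding genes. None of these 5 bins holds an annotated rRNA gene. The longest stretch without a region in at least 2 lists was chr3:20857894-21618050, 760 kb with 23 coding genes, in which the lists had 1, 4 and 7 peaks.

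Chromosome 6 was the richest in NIN peaks in every list and chromosome 3 the poorest. Peaks per Mb on chromosome 6, over those on all chromosomes, came to 1.12, 1.39 and 1.19 in replicates 1, 2 and 3, a mean of 1.23 ± 0.136 (SD, n = 3). On chromosome 3 the mean was 0.764 ± 0.0498, with a range of 0.734 to 0.821, and the other 6 chromosomes had means of 0.989 to 1.04. The contrast was larger among regions in all 3 lists, with 7.42 per Mb on chromosome 6, or 1.51 times the mean, and 3.24 per Mb on chromosome 3, or 0.661 times. Chromosome 6 has 57.3 coding genes per Mb, the fewest of the 8, but chromosome 3 has 76.2 and is not the richest in genes. By plain share, 17.9% of replicate 1 peaks touched replicate 2 on chromosome 3, the lowest, and 24.9% on chromosome 6, the highest. The same 2 chromosomes were lowest and highest for replicate 1 in replicate 3, with 33.5 and 47.0%. For replicate 2 in replicate 3 they were so with 43.7 and 53.8%. Seen from the longer list, chromosome 3 was not the lowest. For replicate 2 in replicate 1 the lowest share was on chromosome 8 and the highest on chromosome 4. For replicate 3 chromosome 6 was still the highest, but the lowest was chromosome 7 in replicate 1 and chromosome 1 in replicate 2. Only the ratio to coverage was highest on chromosome 3, which had the lowest coverage in every list. Its ratio of midpoints to coverage was the highest in all 6 directions, for example 8.57 for replicate 1 in replicate 2, where chromosome 6 had the lowest, 5.88.

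In bins of 1 Mb, replicates 1 and 2 shared their broad distribution, and so did replicates 2 and 3, but replicates 1 and 3 shared little of it. Spearman rho over 420 bins was 0.684 for replicates 1 and 2, 0.674 for replicates 2 and 3 and 0.267 for replicates 1 and 3; neighbouring bins are not independent. On chromosome 6 alone, rho for replicates 1 and 3 was -0.357 over 42 bins, and on chromosome 3 it was 0.564 over 58 bins. With coding genes per bin, rho was -0.0380 for replicate 1, -0.510 for replicate 2 and -0.665 for replicate 3. Replicate 3 had a negative rho with genes on 7 chromosomes and 0.230 on chromosome 3. For replicate 1 the rho with genes ranged from -0.276 on chromosome 5 to 0.485 on chromosome 6. In the 140 bins with the fewest genes, replicate 1 averaged 30.8 peaks per Mb, against 29.2 in the 140 with the most, a ratio of 1.06, while the ratio was 2.09 in replicate 2 and 1.60 in replicate 3. Regions in all 3 lists averaged 6.59 per Mb in the gene-poor and 2.41 in the gene-rich bins, a ratio of 2.74. With the chromosomes pooled, all lists thinned toward the far end while genes did not. The last 10% of chromosome length held 7.84%, 5.57% and 7.92% of the peaks of replicates 1, 2 and 3. It held 4.21% of regions in all 3 lists, against 12.9% of coding genes. It was not the emptiest part of every chromosome: on chromosome 6, for example, replicate 1 was emptiest further inside.

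Replicates 1 and 3 parted in several gene-poor blocks inside the chromosomes, which were picked out after their values were seen. How much of their whole difference lies in these blocks was not measured. In 37 bins of 1 Mb, replicate 1 had less than 0.5 times its mean number of peaks. On chromosome 3, which held 14 of them, the other lists were low as well, with a mean of 0.360 times the list mean in replicate 2 and 0.509 in replicate 3. In the other 23 bins replicate 1 averaged 0.262 times its mean and replicate 2 averaged 0.526 times, while replicate 3 averaged 1.43 times and exceeded its own mean in 18. The longest such block, chr7:15000001-21000000, has 17.2 coding genes per Mb, and there the lists reached 0.192, 0.518 and 1.62 times their means in replicates 1, 2 and 3. At chr2:24000001-29000000, with 16.4 coding genes per Mb, they reached 0.121, 0.389 and 1.53 times. At chr4:18000001-21000000, with 10.7, they reached 0.253, 0.756 and 1.56 times. Bins with replicate 1 under 0.5 and replicate 3 at 1.5 times the mean or more numbered 12, on 6 chromosomes. They were among the 43 bins with replicate 3 at 1.5 or more. Bins of the opposite kind numbered 0, but few bins could have been of that kind. Replicate 3 was under 0.5 in only 14 bins, all on chromosome 3, where replicate 1 reached at most 0.970 times its mean. The part of mapping in repeats, of depth and of the control libraries in these blocks was not tested.

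**Figure D5:**
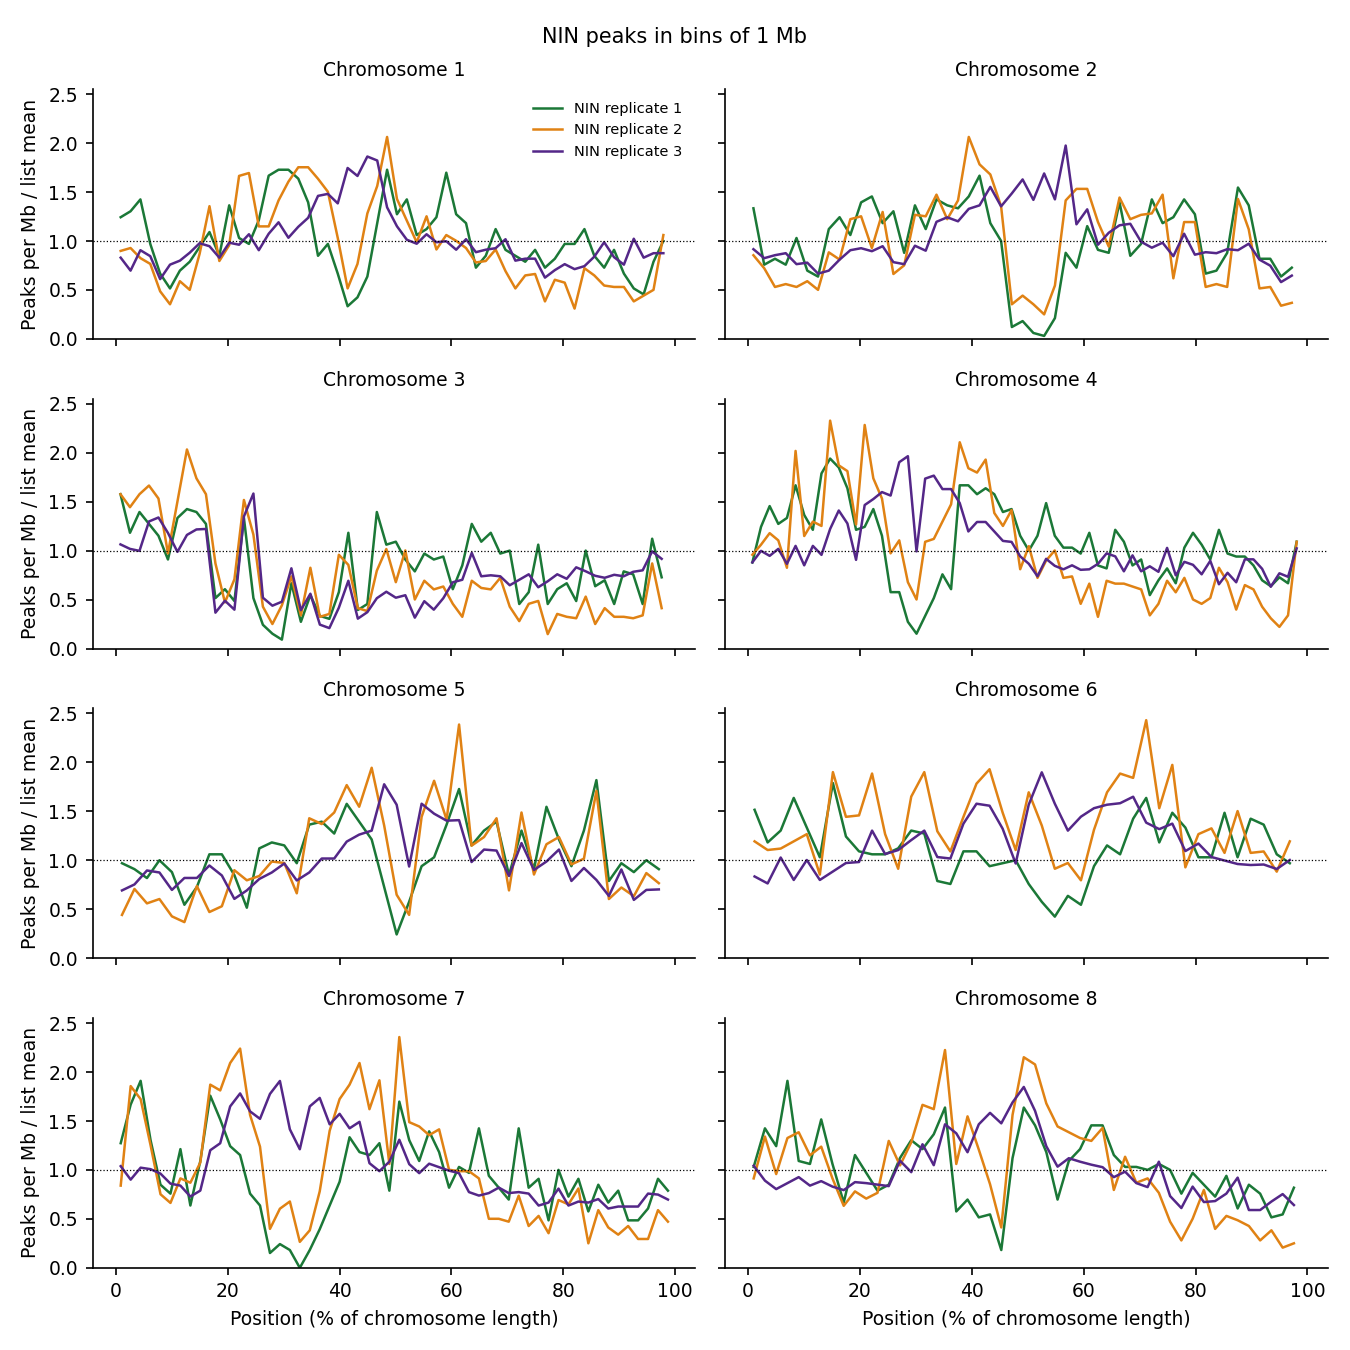
NIN peaks in bins of 1 Mb along each chromosome: the x axis is position as a percentage of chromosome length, the y axis the number of peaks divided by the list's mean over all 420 bins (dotted line at 1), with 1 line per replicate. Replicate 1, and less so replicate 2, dips inside chromosomes 1, 2 and 4 to 8 where replicate 3 is high, as at the block of chromosome 7 with 0.192, 0.518 and 1.62 times the mean. In the bins of chromosome 3 where replicate 1 is under 0.5, the other lists average 0.360 and 0.509 times their means.

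The 10 regions in all 3 lists with the earliest mean place, leaving out the surroundings of rRNA genes, lay on chromosomes 3, 5, 6, 7 and 8. Of these, 3 lay side by side at LOC120576944 on chromosome 7: chr7:6614906-6615843 and chr7:6617711-6618554 overlapped this gene, and chr7:6621653-6623709 lay 521 bp from it. The peaks there had running numbers of 76, 81 and 24 in replicate 1, of 72, 32 and 67 in replicate 2 and of 99, 20 and 17 in replicate 3. A further pair, chr6:29919964-29921200 and chr6:29988717-29989226, lay just before the densest bin of chromosome 6, at least 12541 bp from a coding gene. The chromosome 5 region, chr5:23498529-23498855, lay 9592 bp from an rRNA gene. It overlapped LOC112417792, as did a left-out region 1900 bp from an rRNA gene. The region with the earliest mean place, chr3:33284986-33285753, had number 13 in replicate 1, 20 in replicate 2 and 92 in replicate 3, with peaks of 739, 760 and 747 bp. It thus had nearly the same width in all lists. By contrast, at chr8:22129098-22129783 replicate 3 called 686 bp where the widest peaks of replicates 1 and 2 had 175 and 197 bp. The gene table gives no product for the genes at these regions.

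The 5 widest regions in all 3 lists owed their width to replicate 3. The widest, chr4:23094416-23108293, was a single replicate 3 peak of 13878 bp, number 261 of its list, over 2 peaks of replicate 1 of at most 308 bp and 4 of replicate 2 of at most 952 bp; it overlapped LOC25479520. The second, chr4:25662812-25671877, joined 1 peak of replicate 3 with 1 of replicate 1 and 4 of replicate 2 at LOC120579953. The other 3 were on chromosome 6, 7257 to 8277 bp wide. In all 5 the first replicate 1 peak stood at 11.1 to 79.5% of its list, whereas the first replicate 3 peak stood within the first 2.11%.

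Known nodulation genes were looked up by name, and few of the names could be matched. Of 73 gene names, 23 were matched on chromosomes by symbol or synonym, and NIN itself was not among them. A region in at least 2 lists had its midpoint between 2000 bp outside and 500 bp inside a gene end at 5 of the 23 (21.7%), against 11.7% of all coding genes. A region in all 3 lists stood there at 0 of the 23, against 1.43% of all coding genes, and 23 genes are too few to tell these apart. Peaks of replicates 1, 2 and 3 stood in the window of 6, 6 and 11 of the 23, against 12.3%, 19.2% and 51.1% of all coding genes. The median gap to a region in all 3 lists was 84.8 kb for the matched genes and 98.6 kb for all coding genes.

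By role, 0 of 4 receptor and signalling genes (NFP, the Nod factor receptor; DMI3, the calcium- and calmodulin-dependent kinase; its partner IPD3; and PUB1, a ubiquitin ligase), 0 of 8 transcription factors and co-regulators and 0 of 2 autoregulation genes had a region in at least 2 lists in this window, against 11.7% of all coding genes. The median gap to a region in at least 2 lists was 10.7 kb for the matched genes and 11.0 kb for all coding genes. Among transcription factors, the GRAS proteins NSP1 and NSP2 lay 29634 and 104012 bp from the nearest such region. The ERF factors ERN1 and ERN2 lay 35249 and 52779 bp from theirs. ERN1's nearest region, chr7:40001235-40001794, was in all 3 lists. NOOT2, a BTB-ankyrin co-regulator of nodule identity, lay 5382 bp from a region of replicates 2 and 3. SUNN, the receptor kinase of autoregulation, lay 4084 bp from one, and RDN1, which acts in the same pathway, 4979 bp.

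Of 6 infection genes, 2 had a region in at least 2 lists, against 11.7% of all coding genes. ENOD11, an early nodulin of the cell wall, had 0 peaks of replicate 1, 2 of replicate 2 and 2 of replicate 3 in its window, and VPY, the vapyrin needed for infection, had 1, 0 and 2. The outer of the ENOD11 regions, chr3:4698951-4700434, was also the nearest to ENOD12, 2176 bp from it. All 3 nodule function genes had one, against the same 11.7%, though this group is small and its members were chosen with earlier results known. LB1 and LB6 encode leghemoglobins, which carry oxygen in nodules. LB1 had 1, 1 and 3 peaks of replicates 1, 2 and 3 in its window, and its nearest region of 2 lists, chr1:2111155-2111370 of replicates 1 and 3, lay 562 bp away. LB6 had 1, 0 and 1 peaks, and its nearest region, chr5:29183191-29183952, lay 326 bp away. The nodulin MtN13 had 0, 3 and 2 peaks, and its region chr4:58195836-58196338 of replicates 2 and 3 overlapped the gene. All 5 genes with a region had it through replicate 3: without that list the number was 0, without replicate 1 it was 2 and without replicate 2 it was 3.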

How the data were processed

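Hairy roots were sampled by chromatin immunoprecipitation and sequencing, and the 3 NIN lists, made from 3 immunoprecipitation and 3 control libraries, were analysed. The tools named in the submitters' processing notes are Bowtie2, Picard, MACS2 and ChIPseeker. Versions and settings are not stated, and the genome build is not given in the sources used here. Peaks, per the labels, were called for each replicate and not on pooled samples, as narrow peaks with a q cutoff of 0.05. The lists as deposited by the authors name the sequence of each peak, its ends and its running number, and carry neither height nor enrichment, significance or summit. In all, 0 columns of other series were used. Depth is unknown, so list length is no measure of binding.

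RefSeq's gene table for MtrunA17r5.0-ANR supplied 39590 genes, 31728 of them coding genes on the chromosomes. The peak lists' sequence names begin with MtrunA17, and that both use the same coordinates is an assumption. The table has no strand, exons or products, and no genome sequence was used, so the start windows became windows at both gene ends and no promoters or motifs are given. Gene coordinates are not printed; region coordinates count from 1. A chromosome was counted up to the end of its last gene or peak. Midpoints replaced summits, and a percentile place is 100 times the running number over list length. The share of positions in contact was computed from 20 width quantiles of a list and the gaps of the other.

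Members and lists were chosen with earlier results of these data known. Named regions are the 10 with the earliest mean place and the 5 widest among regions in all 3 lists. These were limited to the 8 chromosomes and to regions over 5000 bp from an rRNA gene. The 5 densest bins of 100 kb by regions in at least 2 lists are named as well. All matched nodulation genes were counted, but not all of them are named. One name matched only a mitochondrial gene and another several genes, and neither was used. The match of ENOD20 is in doubt, but it is counted among the 23 matched genes and the 6 infection genes. Alternatives were overlap of 50% of the smaller peak, midpoints within 100 bp, the first peaks of each list, no peaks over 2000 bp, the 8 chromosomes alone, merging over 200 bp, covered bases per Mb, other gene windows and each list left out. Scripts used Python 3.11.15, numpy 2.4.6, pandas 2.3.3, scipy 1.17.1 and matplotlib 3.10.9 and were tested on simulated data.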

Additional observations from a re-analysis of the deposited data

Results flagged for a closer look

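On the mitochondrial sequence, which entered no comparison, NIN replicate 3 had 15 peaks, while replicates 1 and 2 had 0 each, and a count of 0 allows up to 3. Replicates 1 and 2 also have shorter lists, with 14021 and 28825 peaks against 84178, and a difference beyond list length was not tested. The 15 peaks were 232 to 1199 bp wide with a median of 432 bp, close to the list's own median of 455 bp, and stood at 1.86 to 98.9% of the list. Replicate 3 also had 623 peaks on unplaced sequences, against 9 in replicate 1 and 47 in replicate 2. Unplaced and mitochondrial peaks together made up 0.0642%, 0.163% and 0.758% of the lists of replicates 1, 2 and 3. What lies behind these shares was not tested. Groups of 3 lists were not tested for outlying lists.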

How the results depend on the processing

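No paired analysis was possible because each list already sets an immunoprecipitation against the control of the same replicate, and the results come from no test. Under the alternatives, 39 values stayed within the spread between lists or chromosomes, or within 1.5 times a count, and 14 moved further. Some of the 39 were bound to stay. For median width, median gap, the chromosome 6 ratio and the gene-poor ratio, the value is a mean of 3 lists. Leaving out 1 list cannot move such a mean by the SD of the lists, so these values say nothing about stability. The mean share of the shorter list that overlapped the other, 36.0%, was 12.9% with midpoints within 100 bp and 15.3% with the first peaks of each list, and 20.4 to 48.5% with 1 list left out. Regions in at least 2 lists, 17228, numbered 4908 with the first peaks and 2840 to 12734 with 1 list left out. Regions in all 3 lists, 2092, numbered 641 with the first peaks; with a list left out this count has no value. The mean of the median widths, 326 bp, was 464 bp with the first peaks and 261.5 to 363.5 bp with 1 list left out. Nodulation genes with a region, 5, numbered 0 to 3 with 1 list left out. The share inside coding genes of peaks in contact with replicate 3, less that of other peaks, was -19.1 percentage points in replicate 1 and -16.2 without peaks over 2000 bp. In replicate 2 it was -16.9 points, -13.5 without peaks over 2000 bp and -13.1 with the first peaks; the alternatives for this difference were chosen after seeing the data. Some of these alternatives hold fewer or narrower peaks by construction. The mean of the median widths rose with the first peaks. In replicate 3 the median width was 835 bp in the first 20% of the list and 309 bp in the last 20%. Other causes were not tested. Depth per list is unknown, which limits every comparison of list lengths.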
